A study of Mus musculus with 6 samples.

Results

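The EGR and NR4A genes are activation genes of lymphocytes, and their chromatin accessibility was compared between wildtype and Rroid-deficient natural killer (NK) cells. Of 51775 accessible regions (peaks) found by ATAC-seq, 36 had Egr1, Egr2, Egr3, Nr4a1, Nr4a2, Nr4a3 or Nab2 as their nearest gene, and all 36 were analysed. Every peak with such a gene name was taken, whatever its values, and the 7 genes themselves were picked with earlier results of these data known. There were 8 peaks at Egr3, 6 at Egr2, 3 at Egr1, 9 at Nr4a3, 5 at Nr4a1, 3 at Nr4a2 and 2 at Nab2. Nearest means closest along the chromosome, which does not show what gene a peak regulates.

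The Egr genes encode zinc finger transcription factors, and the Nr4a genes encode orphan nuclear receptors that act as transcription factors without a known circulating ligand. Both groups are immediate early genes, transcribed within minutes of signals through antigen or activating receptors. Inputs of Egr1, Egr2 and Egr3 include MAP kinases and serum response factor. Those of the Nr4a genes include calcium and cyclic AMP signals. Nab2 binds EGR proteins and represses their targets, and is itself an EGR target. In T cells Egr2, Egr3 and the NR4A receptors are known for restraining activated cells, in anergy and exhaustion.

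ATAC-seq cuts open DNA with a transposase that inserts sequencing adapters. The cells were splenic NK cells of C57BL6 mice, gated as negative for CD3 and CD5 and positive for NK1.1 and NKp46. One group was wildtype and the other lacked Rroid, a long noncoding RNA locus near Id2, which encodes an inhibitor of E-protein transcription factors. Each genotype had 3 libraries, from 50000 cells per genotype as the labels put it; how the deletion was made, the age and sex of the mice, and whether libraries came from separate animals are not given in the labels. The p-values therefore measure the spread between these libraries, which may be technical. In bulk cells, a site open in fewer cells and a site less open in every cell cannot be told apart.

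The 6 libraries held 27572006 to 47939665 reads in peaks, with libraries 4 and 6 the shallowest. The labels were checked at the Rroid side of Id2 on chromosome 12: of 41 peaks nearest to Gm17746, 11 kept under 5% of their wildtype mean. Summed over these 11, wildtype libraries held 4035 to 5468 normalized reads and Rroid-deficient libraries 40.9 to 50.8. The 11 were picked by this loss, so the gap between their sums follows from the pick. The other peaks of Gm17746 were not summed. Markers of the gated cell were open, and 34 of 74 peaks of 10 NK marker genes were lower in Rroid-deficient cells and 6 higher, with sums of 102289 to 117798 in wildtype and 81828 to 98674 in Rroid-deficient libraries. Of 19 peaks at 7 T-cell markers 6 were higher and 1 lower, with sums of 5475 to 6415 and 5615 to 6177; Cd4, Cd79a, Ms4a1, Pax5, Lyz2 and Emr1 had no peak. B-cell markers had 1 higher and 0 lower of 8 peaks (sums 528 to 685 and 763 to 932), myeloid markers 3 and 4 of 20 (7461 to 8471 and 6062 to 6672), ILC1 markers 2 and 0 of 24 and erythroid markers 0 and 0 of 5. Over all 51775 peaks, 13.8% were higher and 12.1% lower. The shares higher and lower were 8.11% and 45.9% for NK markers and 31.6% and 5.26% for T-cell markers. B-cell markers had 12.5% and 0%, myeloid markers 15% and 20%, and ILC1 markers 8.33% and 0%. The part of a shift in cell composition or maturity in the results below was not tested.

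Differences went both ways. Of the 36 peaks, 6 rose and 7 fell in Rroid-deficient cells, while 23 did not pass the test (limma on log2 of the normalized value plus 1, adjusted p under 0.05 over all peaks). This is 36.1% called, against 25.8% of all 51775 peaks, of which 13.8% rose and 12.1% fell. All 6 rising peaks lay upstream of Nr4a1 or Nr4a3, 3 at each. The falling peaks numbered 4 at Egr3 and 1 each at Nr4a2, Nr4a3 and Nab2, and none of the 9 peaks of Egr1 and Egr2 was called. By family, the 17 Egr peaks had 0 rises and 4 falls, and the 17 Nr4a peaks 6 rises and 2 falls. Without Rroid-deficient library 5, 12 of the 36 peaks fell and 6 rose. The falls gained this way were at tall peaks, at percentiles 81.4 to 99.2 of all peaks by mean value. The share of all peaks that fell in this setting is not given, only the range over single libraries left out, in the closing section. The 12 are therefore not read as a result about these genes. The wildtype and Rroid-deficient libraries did not overlap at any of the 13 called peaks, nor at 7 of the 23 others; that is 20 of 36, or 55.6%, where 40.1% of all peaks have groups that do not overlap. The median log2 fold change (Rroid-deficient minus wildtype) was -0.07 over the 36 peaks and -0.01 over all peaks. The test by edgeR called 25.7% and that by DESeq2 25.4% of all peaks, and each called the same 13 of the 36.

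**Figure D1:**
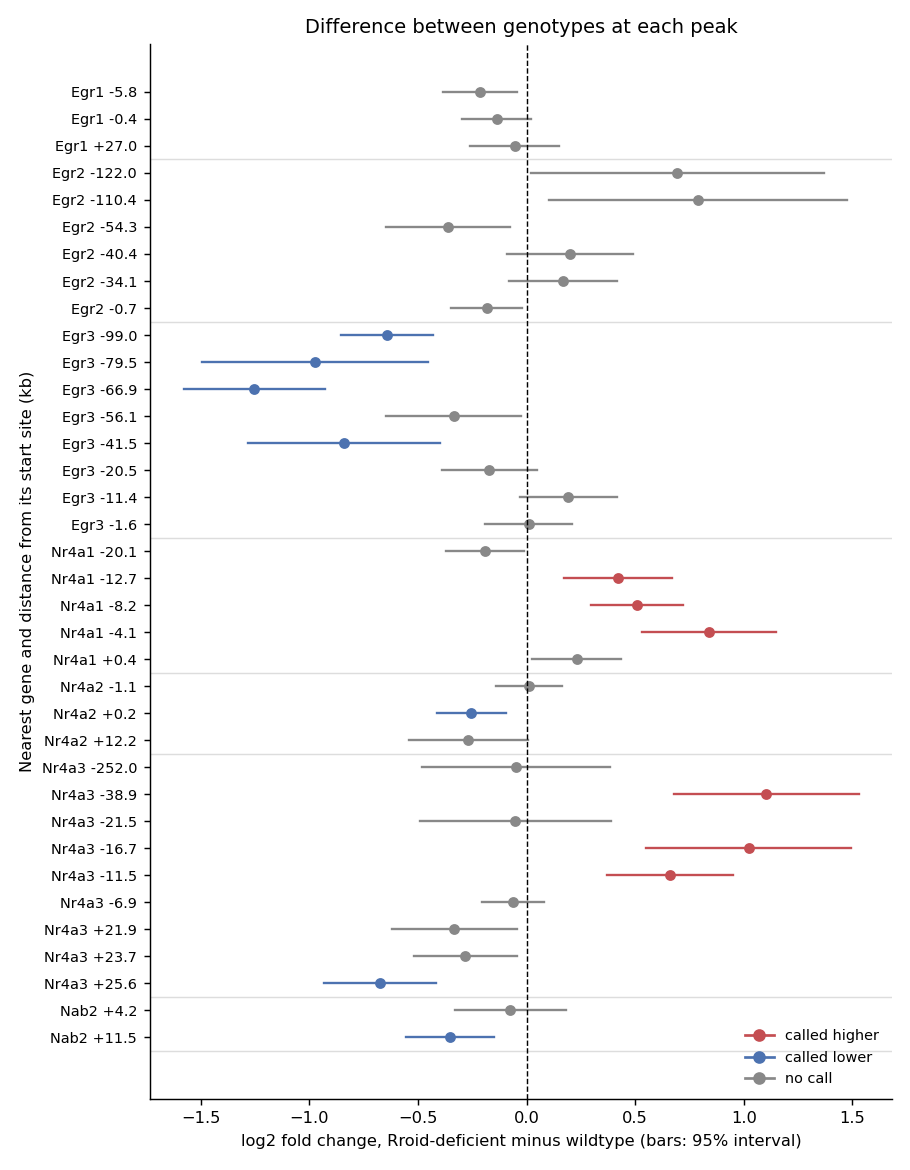
Log2 fold change (Rroid-deficient minus wildtype) at each of the 36 peaks, named by nearest gene and distance from its start site in kb, with bars for the 95% interval from limma and colours for the call. The 6 called rises are at Nr4a1 and Nr4a3, and 4 of the 7 called falls are at Egr3.

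The called peaks split by genomic class. All 6 rising peaks were among the 20 annotated as intergenic, and all 7 falling peaks were among the 14 annotated within an intron, either of the named gene or of a neighbour. This split was noticed after the values were seen and has no test; among all peaks, 14.4% of intergenic peaks rose and 13.6% fell, and 14.5% of intronic peaks rose and 12.7% fell. Only 4 of the 36 peaks lay within 1 kb of a start site, of which 1 fell and 0 rose, where 10.4% of all peaks this close rose and 8.73% fell. A further 13 lay 1 to 20 kb away, with 5 rises and 1 fall, where 14.7% of all peaks at this distance rose and 11.8% fell. The other 19 lay farther out, with 1 rise and 5 falls, where 14.8% of all such peaks rose and 14.1% fell. The peaks were tall: 11 of 36 stood in the highest of 10 equal classes of all peaks by mean value. Of these 11, 1 rose and 1 fell, in a class where 3.36% of all peaks rose and 15.9% fell. In the lowest class 9.58% of all peaks rose and 2.67% fell, so the balance of calls changed with peak height.

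**Figure D2:**
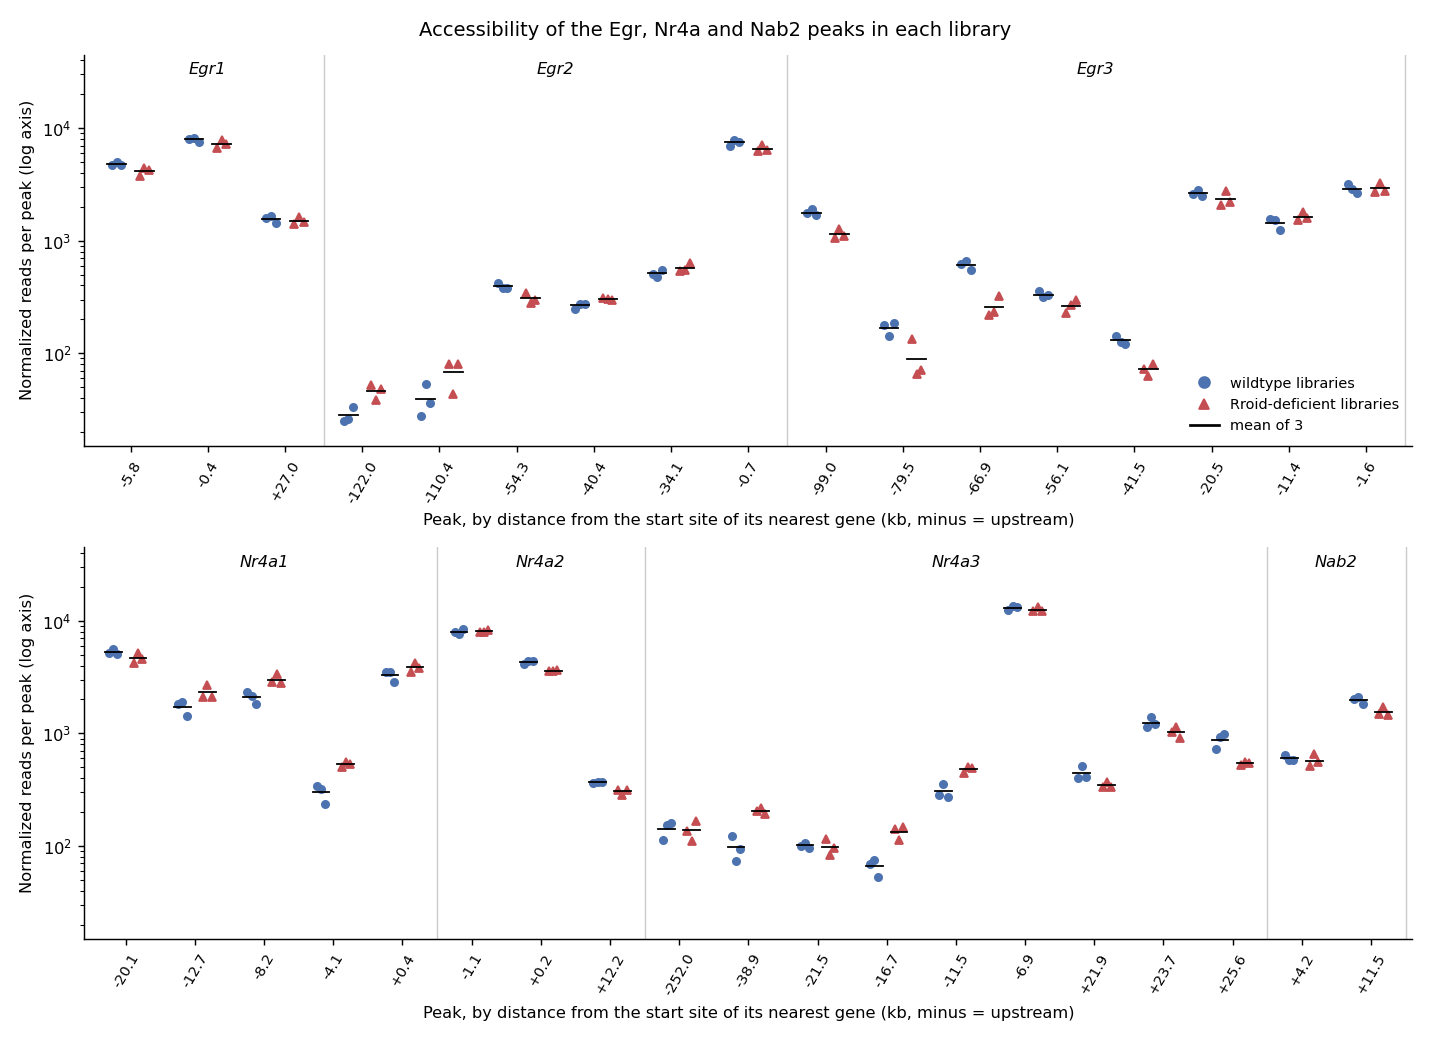
Normalized reads per peak (log axis) in each wildtype library (circles) and Rroid-deficient library (triangles), with black bars for the mean of 3, for peaks ordered by distance from the start site of their nearest gene. The peaks nearest the start sites are the tallest at Egr1 and Egr2. The symbols separate at the far upstream peaks of Egr3 and at the called intergenic peaks upstream of Nr4a1 and Nr4a3. At the uncalled intergenic peaks upstream of Nr4a1 and Nr4a3 they overlap, including at the tallest peak of all.

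Egr1, the most widely induced EGR factor, had no called peak among its 3. Its promoter peak (chromosome 18, 35019351 to 35021651, 360 bp upstream of the start site) held 7963, 8229 and 7584 normalized reads in wildtype libraries 1, 2 and 3, against 6697, 7763 and 7184 in Rroid-deficient libraries 4, 5 and 6. The groups overlapped, with Rroid-deficient library 5 above the lowest wildtype library, and the difference had no call (log2 fold change -0.14, 95% interval -0.30 to 0.02, adjusted p = 0.195). A peak 5783 bp upstream (35013750 to 35016406, intergenic) held 4672, 4997 and 4664 in wildtype, against 3744, 4407 and 4222 in Rroid-deficient cells. There the groups did not overlap, and the difference of -0.21 on the log2 scale missed the threshold (adjusted p = 0.0615, limma); it passed without Rroid-deficient library 5 (adjusted p = 0.0261). The third peak, 26959 bp downstream, averaged 1549.9 ± 112 in wildtype and 1493 ± 117 in Rroid-deficient libraries (n = 3 each, SD) and its groups overlapped. Upstream, the next peak, assigned to Reep2, which encodes a membrane-shaping protein of the endoplasmic reticulum, fell from 392 to 299.9 (adjusted p = 0.0386, limma).

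Egr2, which together with Egr3 restrains T-cell activation, also had no called peak among its 6. The promoter peak (chromosome 10, 66998274 to 67001632, centred 664 bp upstream) held 6993, 7862 and 7569.8 normalized reads in wildtype libraries 1, 2 and 3, against 6251, 7144 and 6373 in Rroid-deficient libraries 4, 5 and 6. Library 5 lay among the wildtype values and the other Rroid-deficient libraries below them (log2 fold change -0.18, 95% interval -0.35 to -0.02, adjusted p = 0.0936; adjusted p = 0.026 without library 5). The next tallest peaks, 34120 and 54307 bp upstream, averaged 511 ± 33.2 in wildtype and 575 ± 48 in Rroid-deficient libraries, and 395 ± 24 in wildtype and 308 ± 33.4 in Rroid-deficient libraries. The latter did not overlap between groups and missed the threshold (log2 fold change -0.36, adjusted p = 0.0571), passing it without library 4 (adjusted p = 0.0431) and among peaks above the median level (0.0479). A peak 40378 bp upstream held 246, 276 and 275 in wildtype, against 310.3, 304 and 299.8 in Rroid-deficient cells, again without overlap and without a call.

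The outermost Egr2 peaks were low, with higher means in Rroid-deficient cells. At 122048 bp upstream the libraries held 24.9, 26 and 33.2 in wildtype, against 51.7, 38.1 and 48.4 in Rroid-deficient cells, and at 110445 bp upstream 27.6, 52.9 and 36.1 in wildtype, against 80.9, 43.8 and 79.8 in Rroid-deficient cells. These values stood for 28 to 40 and 31 to 66 whole reads, and at the second peak the shallow libraries 4 and 6 were high while library 5 lay within the wildtype range. Neither was called (adjusted p = 0.122 and 0.0839), and without library 5 the second was called higher (adjusted p = 0.0157). Next to the Egr2 peaks, the start-site peak of Ado, which encodes a thiol dioxygenase, rose on average from 2459 to 2999.7 (log2 fold change 0.29, adjusted p = 0.0241).

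A single short stretch of the Egr2 promoter is shown because it holds elements through which this gene is known to be induced. In RefSeq (GRCm38.p6, chr10:67537795-67537822, plus strand) it reads, with the CArG box bound by serum response factor and a cyclic AMP response element core in capitals:
Egr2: gtCCATATATGGgcagcgaCGTCAcggg
The core is TGACG on either strand, and reads CGTCA on the printed one. A CArG box lies in 1.47% of 32851 RefSeq windows of 250 bases upstream of a start site, and the core in 17.8%. Sequences are from GRCm38.p6 and peaks in mm9, so whether a printed stretch lies inside a peak was not established by coordinates.

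Egr3 was the EGR gene with called peaks, and they lay far from its start site. Of its 8 peaks, 4 fell, 0 rose and 4 had no call, and the 4 falls lay 41508 to 98953 bp upstream, inside intron 4 of Pebp4, the neighbouring gene for a phosphatidylethanolamine-binding protein. The deepest fall (chromosome 14, 70409758 to 70410985, 66881 bp upstream) went from 619, 664 and 544 normalized reads in wildtype libraries 1, 2 and 3 to 219, 230.4 and 324 in Rroid-deficient libraries 4, 5 and 6. Every Rroid-deficient library was well below every wildtype library, and the mean fell from 609 ± 60.5 to 258 ± 57.7 (SD, n = 3), to 42.3% of wildtype (log2 fold change -1.25, SE 0.15, adjusted p = 1.45e-05, limma).

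The tallest of the falling Egr3 peaks, 98953 bp upstream (70377278 to 70379320), held 1745, 1916 and 1675 in wildtype, against 1059.6, 1271 and 1094 in Rroid-deficient cells, and fell to 64.2% (log2 fold change -0.64, SE 0.10, adjusted p = 0.000152). The peak 79464 bp upstream (70397068 to 70398508) held 179, 142 and 187 in wildtype, against 133, 64.7 and 71.3 in Rroid-deficient cells. Library 4 was higher than libraries 5 and 6 there, yet below the lowest wildtype value (log2 fold change -0.98, SE 0.25, adjusted p = 0.00751). At 41508 bp upstream (70435301 to 70436187) the libraries held 142, 127 and 120.1 in wildtype, against 72.9, 62.8 and 81 in Rroid-deficient cells, a fall to 55.7% (log2 fold change -0.84, SE 0.21, adjusted p = 0.00668). These 4 falls kept their call in every alternative that tested them, including without libraries 4 and 6. Between them, the peak 56076 bp upstream held 355, 313 and 328 in wildtype, against 225, 268 and 299.8 in Rroid-deficient cells, with no overlap and no call (adjusted p = 0.104).

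Near Egr3 itself no peak passed the test. The peak closest to the start site (70474106 to 70477254, centred 1572 bp upstream) held 3173, 2863 and 2651 normalized reads in wildtype libraries 1, 2 and 3, against 2688, 3280.4 and 2784 in Rroid-deficient libraries 4, 5 and 6. The groups overlapped (log2 fold change 0.01, 95% interval -0.19 to 0.21, adjusted p = 0.956). The peak 20547 bp upstream, in the last intron of Pebp4, held 2612, 2811 and 2473 in wildtype, against 2065, 2764 and 2225 in Rroid-deficient cells, and that 11436 bp upstream 1543, 1525 and 1235 in wildtype, against 1517, 1791 and 1592 in Rroid-deficient cells (adjusted p = 0.239 and 0.201). Without Rroid-deficient library 5 the first of these was called lower (adjusted p = 0.0261). The flanking peaks of Pebp4 and Bin3, on either side of the Egr3 group, had no call (adjusted p = 0.2 and 0.84).

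**Figure D3:**
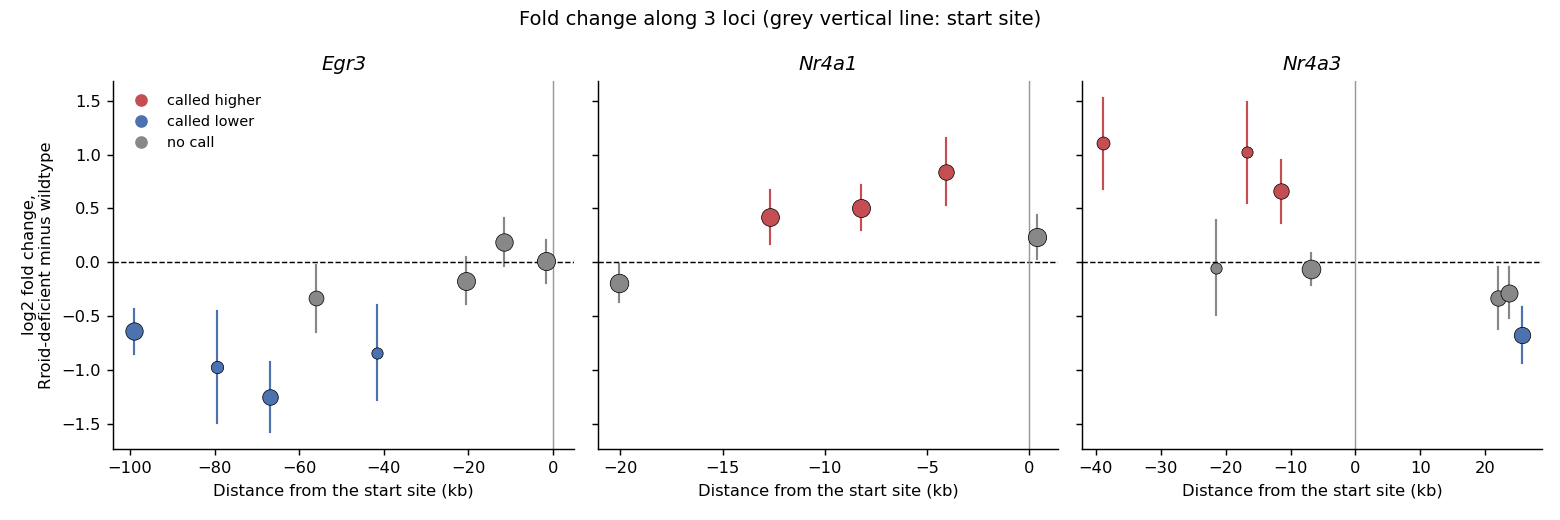
Log2 fold change against distance from the start site (kb) for the peaks of Egr3, Nr4a1 and Nr4a3 within 100 kb, with bars for the 95% interval, colours for the call and larger points for peaks with a higher mean value. The called falls of Egr3 lie far upstream, and the called rises of Nr4a1 and Nr4a3 lie upstream of each start site with uncalled peaks around them.

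Nab2, the EGR co-repressor, had 2 peaks. The taller one (chromosome 10, 127091685 to 127092908) was assigned to Nab2 at 11463 bp downstream of its start site but lies in an intron of Stat6, the transcription factor of interleukin-4 signalling. It held 2006, 2119.7 and 1831 normalized reads in wildtype libraries 1, 2 and 3, against 1476, 1721 and 1470.2 in Rroid-deficient libraries 4, 5 and 6, without overlap, and fell to 78.3% (log2 fold change -0.35, SE 0.10, adjusted p = 0.0122). The call was lost without wildtype library 2 (adjusted p = 0.0658), without Rroid-deficient library 6 (0.0778) and without libraries 4 and 6 together (0.404); adjusted p ran from 0.0035 to 0.404 over the alternatives. The other peak, 4241 bp downstream in the last intron of Nab2, averaged 603 ± 36.6 in wildtype and 574 ± 69.5 in Rroid-deficient libraries and overlapped (log2 fold change -0.08, 95% interval -0.33 to 0.18, adjusted p = 0.687). The Nab2 start site implied by these distances (127103750) lies inside a peak assigned to 1700012D01Rik (127103238 to 127106499), outside the group. That peak averaged 6060 in wildtype and 5704 in Rroid-deficient libraries, without a call (log2 fold change -0.09, adjusted p = 0.439, limma).

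The 3 Nr4a promoters share a feature that the choice of genes did not use, although the element was searched because it is known at these genes. Each RefSeq window of 250 bases upstream of the start site (GRCm38.p6) holds 4 copies of the cyclic AMP response element core TGACG, counted on both strands, through which CREB-family factors are known to act. The windows are shown because these genes carry most of the called peaks, with the cores in capitals (as TGACG, or as CGTCA where the match is on the other strand), 5′ to 3′ along each gene. The Nr4a1 window is chr15:101266596-101266845 on the plus strand, that of Nr4a2 chr2:57124004-57124253 on the minus strand and that of Nr4a3 chr4:48045055-48045304 on the plus strand.
Nr4a1: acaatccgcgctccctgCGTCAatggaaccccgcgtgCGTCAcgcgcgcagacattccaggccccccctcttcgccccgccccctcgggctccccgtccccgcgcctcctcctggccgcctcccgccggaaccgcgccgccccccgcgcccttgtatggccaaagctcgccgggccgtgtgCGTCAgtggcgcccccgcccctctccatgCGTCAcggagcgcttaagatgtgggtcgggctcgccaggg
Nr4a2: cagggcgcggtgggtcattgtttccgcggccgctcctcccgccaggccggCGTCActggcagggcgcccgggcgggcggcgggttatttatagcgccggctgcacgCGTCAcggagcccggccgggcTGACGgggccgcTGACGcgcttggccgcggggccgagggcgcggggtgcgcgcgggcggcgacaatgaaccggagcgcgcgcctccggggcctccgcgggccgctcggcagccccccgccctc
Nr4a3: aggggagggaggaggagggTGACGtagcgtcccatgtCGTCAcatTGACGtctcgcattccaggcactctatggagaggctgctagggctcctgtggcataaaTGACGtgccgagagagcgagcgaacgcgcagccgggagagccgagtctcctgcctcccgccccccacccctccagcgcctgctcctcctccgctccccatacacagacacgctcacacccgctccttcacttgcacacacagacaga
At least 4 cores occur in 45 of the 32851 windows of this length (0.137%), at least 2 in 3.9% and at least 1 in 17.8%. The cut of 4 equals the count found in these 3 windows, so the share at that cut is a description only. The core is part of the full element TGACGTCA, which was searched too and is in none of the member windows. The windows are 74.4%, 80% and 63.6% G or C, in the order printed, and the shares over all windows were not matched for this content. No Egr2 window held more than 2 cores and the Nab2 window held none. The EGR site GCGNGGGCG was found once each in the Nr4a1 and Nr4a2 windows (4.7% of all windows hold it), and the MEF2 site once at Nr4a2 (2.92%). The E-boxes CAGCTG and CAGGTG, the AP-1 site TGANTCA and the NGFI-B response element AAAGGTCA, which NR4A receptors bind, were in none of the 9 windows of 5 members, against 13%, 17.2%, 6.75% and 1.34% of all windows. Of the 7 genes, 5 were matched to windows, and Egr1 and Egr3 were not.

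Nr4a1, which encodes the receptor Nur77 and is induced in proportion to antigen receptor signals in T cells, gained accessibility upstream. Of 5 peaks, 3 rose and 0 fell, and the 3 were neighbours, 4065 to 12698 bp upstream. The peak nearest the gene among them (chromosome 15, 101092120 to 101094304, intergenic) held 342, 322 and 234 normalized reads in wildtype libraries 1, 2 and 3, against 503, 551 and 537 in Rroid-deficient libraries 4, 5 and 6. All Rroid-deficient libraries exceeded all wildtype libraries, and the mean rose 1.77-fold, from 299 ± 57.1 to 530.2 ± 25 (log2 fold change 0.84, SE 0.15, adjusted p = 0.000437).

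The next Nr4a1 peak (101088574 to 101089529, 8226 bp upstream) was much taller, with 2338, 2136 and 1842 in wildtype, against 2839, 3337 and 2793 in Rroid-deficient cells, and rose 1.42-fold without overlap (log2 fold change 0.51, SE 0.10, adjusted p = 0.00125). At 12698 bp upstream (101084000 to 101085158) the libraries held 1841, 1916 and 1439 in wildtype, against 2123, 2713 and 2109 in Rroid-deficient cells. The highest Rroid-deficient value was library 5 and the lowest wildtype value library 3, and the 1.34-fold rise (log2 fold change 0.42, SE 0.12, adjusted p = 0.0146) lost its call without either (adjusted p = 0.0571 and 0.0807, in a range of 0.00182 to 0.0807 over the alternatives). The 2 rises closer to the gene kept their call in every alternative that tested them.

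On either side of these peaks Nr4a1 showed no call. The peak at the start site (101096708 to 101098639, centred 396 bp downstream in intron 1) held 3516, 3477 and 2859.9 in wildtype, against 3477, 4254 and 3818 in Rroid-deficient cells, with the groups overlapping (log2 fold change 0.23, 95% interval 0.03 to 0.43, adjusted p = 0.0906). It was called higher when values were scaled to the total over peaks (adjusted p = 0.0161), after loess (0.00708) and without library 4 (0.0477). The tallest Nr4a1 peak, 20083 bp upstream (101076431 to 101077958), held 5181, 5605 and 5106 in wildtype, against 4189, 5172 and 4577 in Rroid-deficient cells (adjusted p = 0.106), and was called lower without library 5 (0.0192). Beyond the gene, the start-site peak of Atg101, an autophagy gene, fell on average from 3750.2 to 3023 (log2 fold change -0.31, adjusted p = 0.0215).

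Nr4a2, which encodes Nurr1, had 1 called peak of 3. Its tallest peak (chromosome 2, 56966648 to 56970406) held 7918, 7577 and 8519 normalized reads in wildtype libraries 1, 2 and 3, against 8036, 7893 and 8241 in Rroid-deficient libraries 4, 5 and 6, with overlap (log2 fold change 0.01, 95% interval -0.14 to 0.16, adjusted p = 0.93). The peak centred 175 bp downstream of a start site (56975419 to 56977059) held 4104, 4396 and 4408 in wildtype, against 3600.4, 3560.2 and 3651 in Rroid-deficient cells, so the Rroid-deficient libraries were close to each other and all below wildtype. It fell to 83.8% (log2 fold change -0.25, SE 0.08, adjusted p = 0.0193). That call was the least stable of the 13: it was lost after loess (adjusted p = 0.0644), without wildtype library 2 (0.0714) or 3 (0.0566), without Rroid-deficient library 4 (0.0521) or 6 (0.0774) and without libraries 4 and 6 together (0.17), in a range of 0.0131 to 0.17. The third peak, 12217 bp downstream, held 363, 371 and 370.2 in wildtype, against 317, 286 and 316 in Rroid-deficient cells, without overlap and without a call (adjusted p = 0.143). The distances of the 2 taller peaks are counted from different start sites of the gene.

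Nr4a3, which encodes NOR-1, was the only one of the 7 genes with called peaks in both directions; 854 of the 10513 genes with 2 or more peaks had both. Of its 9 peaks, 3 rose, 1 fell and 5 had no call. The largest rise of all 36 peaks was 38884 bp upstream (chromosome 4, 48024801 to 48025671, intergenic), with 123, 73.9 and 94.7 normalized reads in wildtype libraries 1, 2 and 3, against 206, 219 and 193 in Rroid-deficient libraries 4, 5 and 6. The lowest Rroid-deficient library was above the highest wildtype library, and the mean rose 2.12-fold (log2 fold change 1.10, SE 0.20, adjusted p = 0.00062).

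At 16672 bp upstream of Nr4a3 (48047087 to 48047810) a low peak held 69.5, 74.8 and 52.7 in wildtype, against 142, 112 and 147 in Rroid-deficient cells, from 54 to 122 whole reads, and rose 2.04-fold (log2 fold change 1.02, SE 0.22, adjusted p = 0.00262). This call was lost with libraries 4 and 6 left out together (adjusted p = 0.141) and held in the other alternatives that tested it. At 11461 bp upstream (48052322 to 48052996) the libraries held 285, 355 and 274 in wildtype, against 440.3, 503 and 497 in Rroid-deficient cells, a 1.57-fold rise without overlap (log2 fold change 0.66, SE 0.14, adjusted p = 0.0019). A peak that lies among them, 21456 bp upstream, averaged 101 ± 4.6 in wildtype and 98.3 ± 16.3 in Rroid-deficient libraries, and the one 251984 bp upstream 142 ± 25.7 in wildtype and 138 ± 27.8 in Rroid-deficient libraries, both with overlap.

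The rising Nr4a3 peaks stand beside the tallest peak of the whole group. That peak (48055414 to 48059107, 6860 bp upstream of the annotated start site) held 12515, 13595 and 13152 normalized reads in wildtype libraries 1, 2 and 3, against 12171, 13303 and 12135 in Rroid-deficient libraries 4, 5 and 6, at the 99.9th percentile of all peaks by mean value, and did not pass the test (log2 fold change -0.06, 95% interval -0.21 to 0.08, adjusted p = 0.542). Downstream, 3 peaks in the last intron of Nr4a3 were all lower on average. The farthest, 25595 bp from the start site (48089347 to 48090084), held 729, 919 and 984 in wildtype, against 526, 561 and 548 in Rroid-deficient cells and fell to 62.1% without overlap (log2 fold change -0.67, SE 0.12, adjusted p = 0.000588). The other 2, at 21913 and 23736 bp, held 399, 516 and 407 in wildtype, against 337, 369 and 336 in Rroid-deficient cells, and 1134, 1385 and 1210.2 in wildtype, against 1018, 1149.9 and 902 in Rroid-deficient cells (adjusted p = 0.0823 and 0.0741); the latter was called lower without library 5 (0.024).

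Peaks of one gene were then compared with each other. In limma's diffSplice test, which sets the log2 fold change of a peak against that of the other peaks of its gene, 15 of the 36 peaks differed (adjusted p under 0.05), against 18% of the 45747 peaks tested. There were 6 at Nr4a3, 4 at Egr3, 3 at Egr2 and 2 at Nr4a1. At Nr4a3 the 3 rising peaks stood above the rest, by 1.08, adjusted p = 9.63e-06 at the outermost, and the 3 intronic peaks below, by -0.93, adjusted p = 9.77e-05 at the farthest. At Egr3 the peaks 66881 and 79464 bp upstream stood below (-0.86, adjusted p = 0.001, and -0.54, adjusted p = 0.0385). Those 11436 and 1572 bp upstream stood above (0.79, adjusted p = 0.00229, and 0.58, adjusted p = 0.0246). The called falls 98953 and 41508 bp upstream did not pass this test (adjusted p = 0.613 and 0.154). At Nr4a1 the peak 4065 bp upstream stood above (0.60, adjusted p = 0.0118) and that 20083 bp upstream below (-0.69, adjusted p = 0.00399). The 3 Egr2 peaks include the 2 lowest of the group; this test shares 1 estimate of spread over a gene's peaks, so its p-values are too small for low peaks.

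Summed over each gene, the differences were small. One sum of 7 passed the test, where 20.7% of 16526 genes did. Nab2 fell from 2588 ± 152 to 2129 ± 210.3 (log2 fold change -0.28, SE 0.09, adjusted p = 0.0408), a call lost without wildtype library 1 (adjusted p = 0.0911) or 2 (0.13), without Rroid-deficient library 4 (0.134) or 6 (0.174) or both (0.687), among peaks above the median level (0.0501) and with scaling to the total over peaks (0.0559), in a range of 0.0105 to 0.687. Its sum leaves out the uncalled peak over the Nab2 start site, assigned to 1700012D01Rik. The peak in the Stat6 intron made up 75.1% of the Nab2 sum. The Nr4a1 sum was 12718 ± 1078 in wildtype and 14331 ± 1511 in Rroid-deficient libraries (log2 fold change 0.17, 95% interval -0.01 to 0.35, adjusted p = 0.168) and was called higher after scaling to the total (adjusted p = 0.0321) and after loess (0.0144). The Egr3 sum was 9981 ± 665 in wildtype and 8728 ± 904 in Rroid-deficient libraries (log2 fold change -0.20, 95% interval -0.37 to -0.02, adjusted p = 0.104), called lower without library 5 (adjusted p = 0.0198). Log2 fold changes of the sums were -0.15 for Egr1, -0.14 for Egr2, -0.08 for Nr4a2 and -0.08 for Nr4a3. After loess they were -0.05, -0.05, 0.03 and 0.04 in this order, so the direction at Nr4a2 and Nr4a3 depended on the normalization. Without loess, exact two-sided permutation tests of the sums gave p = 0.1 for Nr4a2 and Nab2, the smallest that 3 against 3 allows. They gave 0.3 for Nr4a1 and 0.2 for the other 4.

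**Figure D4:**
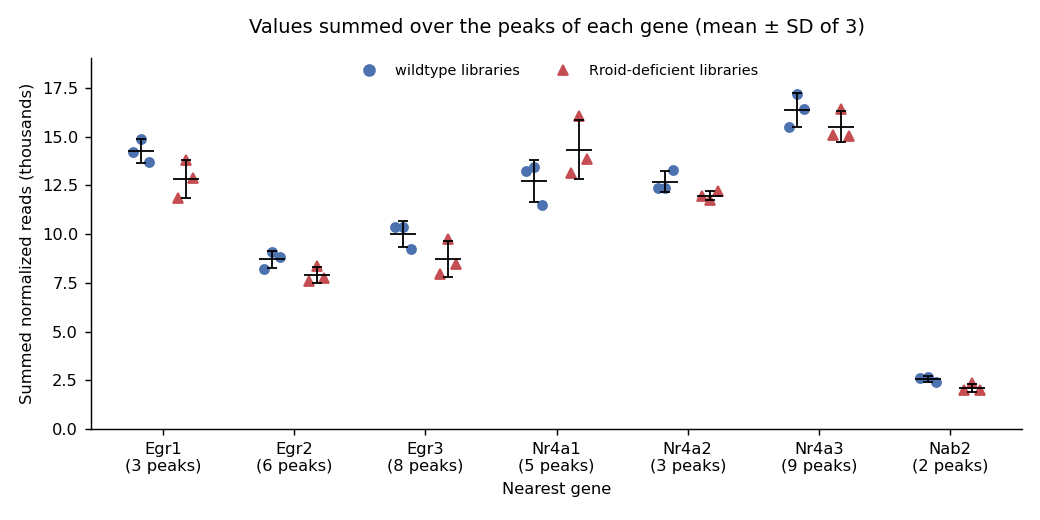
Normalized reads summed over the peaks of each gene (y axis, linear from 0, in the units of its label) for wildtype libraries (circles) and Rroid-deficient libraries (triangles), with the mean and SD of 3. In these values, plotted without loess, Nr4a1 is the gene whose Rroid-deficient mean is above wildtype, and the groups are apart at Nr4a2 and Nab2.

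Per kb of peak, the order of levels in wildtype was Egr1 (1956 ± 82.4 normalized reads per kb), Nr4a2 (1904 ± 80.9), Nr4a3 (1661 ± 87), Nr4a1 (1638 ± 139), Egr2 (1162 ± 59), Nab2 (931 ± 54.5) and Egr3 (774 ± 51.6). Egr1 overlapped with Nr4a2, and Nr4a3 with Nr4a1, over the 3 libraries, while the other neighbours were apart. The Nab2 level leaves out the peak over its start site, assigned to 1700012D01Rik. In Rroid-deficient libraries Nr4a1 had 1846 ± 195 per kb, Nr4a2 1797 ± 35.2 and Egr1 1761 ± 134, and the libraries of these 3 genes overlapped. The gene with the most similar summed profile over the 6 libraries, among 8256 at or above the median level, was Deb1 for Egr1 (Euclidean distance 0.00924 on the centred log2 scale), Ociad1 for Egr2 (0.0282), 1700101I11Rik for Egr3 (0.0561), Map4k1 for Nr4a1 (0.0218), Cox20 for Nr4a2 (0.0335), 2810001G20Rik for Nr4a3 (0.0287) and Kcnip3 for Nab2 (0.0529). With 6 libraries and this many genes, close profiles are a description only.

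Partners and regulators of the EGR and NR4A factors had 14 rising and 5 falling of 94 peaks near 17 genes, a share called of 20.2% (25.8% over all peaks) and a median log2 fold change of 0.02. Shares rising and falling were 14.9% and 5.32%, against 13.8% and 12.1% of all peaks. After scaling to the total over peaks, 3 peaks of the list fell. Egr4, the remaining EGR gene, rose at its 1 peak, and Nab1, the relative of Nab2, at 1 of 10. Large rises by the naming rule were at Creb1, the factor of the cyclic AMP element (from 65.2 ± 4.43 to 158 ± 39, adjusted p = 0.000592), and at Mkl1, a cofactor of serum response factor (from 177 ± 25.2 to 372 ± 22.7). Of the 11 peaks of Rxra, which encodes a partner receptor of Nur77 and Nurr1, 4 fell. The deepest fall went from 56.8 ± 3.61 to 30.9 ± 3.25 on 23 to 69 reads a library (adjusted p = 0.037 with limma), and was not called by DESeq2 (adjusted p = 0.0504).

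Other immediate early genes had 67 rising and 53 falling of 323 peaks near 37 genes, 37.2% called (25.8% over all peaks), and a median log2 fold change of 0.02. Shares rising and falling were 20.7% and 16.4%, against 13.8% and 12.1% of all peaks. Sik1, a kinase induced by cyclic AMP, rose at 11 of 12 peaks, with the largest rise from 22.3 ± 10.4 to 99.8 ± 14.8. Peaks of Klf4, a Krüppel-like factor (from 252 ± 13.2 to 862 ± 31.3), and Btg1, an antiproliferative gene (from 41.9 ± 12 to 138 ± 30.4), followed in size. The deepest falls were at Dusp1, a MAP kinase phosphatase (from 1755 ± 168 to 658 ± 76.6, adjusted p = 1.24e-07), Klf6 (from 375 ± 105 to 147 ± 14.6) and Tnfaip3, an inhibitor of NF-kB (from 72.4 ± 14.7 to 32.3 ± 3.34). At Btg1, 7 peaks rose and 11 fell of 38. Chosen after the values were seen, Dusp5 and Zfp36l1 each had 7 rising and 0 falling peaks, of 11 and 16, while Jun had 1 and 7 of 22 and Nfkbiz 1 and 7 of 22.

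Genes known to lie downstream of EGR or NR4A factors in T cells had 34 rising and 39 falling of 198 peaks near 22 genes, 36.9% called (25.8% over all peaks), and a median log2 fold change of -0.04. Shares rising and falling were 17.2% and 19.7%, against 13.8% and 12.1% of all peaks. The largest rises were at Tnfrsf9, which encodes 4-1BB (from 64 ± 9.56 to 267 ± 17.8, adjusted p = 6.3e-07), Cblb, a ubiquitin ligase of anergy (from 118 ± 13.1 to 484 ± 57.3), and Lag3, an inhibitory receptor (from 332 ± 155 to 1031 ± 57.4). The deepest falls were at Entpd1, which encodes CD39 (from 440.4 ± 38 to 159 ± 37.2, with 7 of 9 peaks lower), Nt5e, which encodes CD73 (from 84.9 ± 25.1 to 33.6 ± 4.95), and Ikzf2 (from 258 ± 22.4 to 121 ± 24). Tox, chosen after its values were seen, had 10 falling and 0 rising peaks of 19. The 3 lists were drawn up by function with earlier results of these data known. Their peaks were assigned by nearest gene alone, and the named ones lay 6187 bp (Entpd1) to 340550 bp (Cblb) from the start site. The distance was 243627 bp for the Klf4 peak and 49920 bp for the Nt5e peak.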

How the data were processed

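Reads were handled on build mm9 with HOMER, R 3.1.1, DiffBind, MACS2 2.1.0, BWA, Trimmomatic 0.32 and bcl2fastq 2.16.0, in no stated order, per the submitters' processing notes. The settings, the shift of reads for transposase cuts and duplicate removal were not given in the sources used. The authors deposited 1 table with a normalized signal per consensus peak and library, and, per the file headers, the nearest gene with its distance and class. Each signal was a whole number of reads divided by 1 factor per library (100% of values whole within 0.01), and the recovered reads served edgeR 4.0.16 and DESeq2 1.42.0. Median peaks held 151 to 224 reads, a counting error of 6.68 to 8.14%.

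Values plus 1 were put on the log2 scale and fitted over all peaks with limma 3.58.1, its variance prior following the intensity, with Benjamini-Hochberg adjustment; such fold changes understate low peaks. Peak values of a gene were summed for the gene test, leaving out 15 peaks without a gene name. Within-gene tests used diffSplice. A filter of 10 in 3 libraries would remove 0 peaks, and all 36 members pass it. Column names gave the genotype only, so libraries carry the numbers of their columns. The scripts were tested on simulated data. The 7 genes and the lists were chosen with earlier results of these data known. The naming rule took every called member peak, each promoter peak, up to 2 tall uncalled peaks per gene, and the 3 largest rises and falls per list; an item it selects is not reported here. Values are mean ± SD with n = 3, and coordinates are mm9 unless given as GRCm38.p6.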

Additional observations from a re-analysis of the deposited data

How the results depend on the processing

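Alternatives were scaling to the total over peaks, DESeq2 size factors, cyclic loess, edgeR and DESeq2 on whole reads, pseudocounts of 0.5 and 5, peaks above the median mean value, adjusted p limits of 0.01 and 0.10, leaving out each library, and peaks within 100 or 1 kb; leaving out libraries 4 and 6 together was added after seeing the data. Of the 13 called member peaks, 9 kept their call in every alternative that tested them, 4 lost it in at least 1, and 0 reversed; 8 uncalled peaks gained a call in at least 1, apart from the limit of 0.10. The cause of these changes was not tested. The limit of 0.10 gave 12 falling member peaks, and only peaks within 1 kb gave 0 rising and 1 falling, since fewer peaks were counted. Leaving out 1 library gave 5 to 7 rising and 5 to 12 falling member peaks, the 12 without Rroid-deficient library 5. Over all peaks, rising and falling counts were 3525 and 4771 above the median level, 4365 and 3265 at 0.01, and 3728 and 3653 without libraries 4 and 6; without single libraries they ran from 5218 to 7508 and from 4039 (without wildtype library 2) to 6304. Summed member genes numbered 1 rising and 0 falling after scaling to the total, 1 rising after loess, and 0 falling above the median level, at 0.01 and without libraries 4 and 6; without single libraries 0 rose and 0 to 2 fell. Within-gene differences numbered 15 at pseudocount 1 and 14 at 5. Partners and regulators had 3 falling peaks after scaling to the total. Scaling moved the median over all peaks by at most 0.06 (log2). Single tall peaks moved by more than this median after loess. There the log2 fold change went from -0.14 to -0.02 at the Egr1 promoter peak. It went from 0.01 to 0.13 at the tallest Nr4a2 peak and from -0.06 to 0.08 at the tallest Nr4a3 peak. No paired analysis was possible because the Rroid-deficient columns carry numbers that match no title. Depth limits the lowest Egr2 and Nr4a3 peaks, where a library held as few as 28 reads.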
